A study of Mus musculus with 40 samples.

Results

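The subject is 7 genes of the mitotic machinery (Cdk1, Ube2c, Cdca3, Kif11, Tpx2, Cdca8 and Top2a), out of 16593 genes named on the array. Their 10 probes were taken by gene symbol, a rule that uses no measured value. The genes themselves were chosen with earlier results of these data known. Both intestinal segments, colon and small intestine, were taken from each of 20 specific-pathogen-free females aged 9 weeks. Their RNA was hybridized to 40 arrays on Illumina MouseRef-8 BeadChips, 1 array per mouse and tissue. The 8 groups of 5 were BALB/c mice (from Janvier) or C57BL/6 mice (from Charles River), given either phosphate-buffered saline (PBS) or VSL#3, a mixture of live probiotic bacteria suspended in PBS, each sampled in both tissues. Every mouse, controls included, was gavaged with 200 µl, 3 times a week for 4 weeks. Strain and supplier cannot be told apart, and RNA came from intestinal tissue with all its cell types, so lower RNA of a gene can mean fewer dividing cells or less RNA per cell, which bulk arrays cannot tell apart.

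Mitosis starts when the kinase Cdk1, bound to cyclin B, phosphorylates proteins of the nuclear envelope, chromosomes and spindle. Kif11 is the kinesin motor that pushes the spindle poles apart, and Tpx2 activates Aurora A and nucleates microtubules around chromosomes. Cdca8 (borealin) is a subunit of the chromosomal passenger complex, which corrects faulty attachments of chromosomes to the spindle, and Top2a untangles sister DNA molecules so that they can separate. Ube2c is the ubiquitin-conjugating enzyme that works with the anaphase-promoting complex (APC/C), the ligase that ends mitosis by marking cyclin B and securin for destruction. Cdca3 is an adaptor that promotes loss of the Cdk1 inhibitor Wee1 at mitotic entry. In the intestine the crypts hold most dividing epithelial cells, and lymphoid tissue in the wall adds dividing lymphocytes.

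Genes of this class are known for a shared promoter layout, in which a CHR element (cell cycle genes homology region) bound by the MuvB complexes lies a short way downstream of CCAAT boxes bound by NF-Y. RefSeq promoter windows of 300 bases, 250 before and 50 after the annotated transcription start (build GRCm38.p6), were found for 6 of the 7 genes, Tpx2 being the exception. The 110 bases before the start are shown because they hold the layout in most of these genes. Capitals mark CHR letters (TTTGAA or its reverse complement TTCAAA) and CCAAT letters (CCAAT or its reverse complement ATTGG), and each sequence runs 5′ to 3′ on the gene's strand.
Cdk1 (chr10:69352913-69353022, minus strand): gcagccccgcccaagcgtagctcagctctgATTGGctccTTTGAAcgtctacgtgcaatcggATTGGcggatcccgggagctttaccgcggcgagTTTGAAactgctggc
Ube2c (chr2:164769819-164769928, plus strand): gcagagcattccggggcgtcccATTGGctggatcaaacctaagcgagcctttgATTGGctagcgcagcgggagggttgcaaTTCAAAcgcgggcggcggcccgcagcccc
Cdca3 (chr6:124830066-124830175, plus strand): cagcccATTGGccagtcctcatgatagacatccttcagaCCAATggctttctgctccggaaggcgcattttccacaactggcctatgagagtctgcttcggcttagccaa
Kif11 (chr19:37376272-37376381, plus strand): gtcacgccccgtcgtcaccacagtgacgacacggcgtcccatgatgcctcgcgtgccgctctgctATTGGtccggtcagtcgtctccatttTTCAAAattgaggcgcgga
Cdca8 (chr4:124936918-124937027, minus strand): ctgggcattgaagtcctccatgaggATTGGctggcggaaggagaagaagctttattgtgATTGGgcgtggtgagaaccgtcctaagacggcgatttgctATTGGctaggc
Top2a (chr11:99024190-99024299, minus strand): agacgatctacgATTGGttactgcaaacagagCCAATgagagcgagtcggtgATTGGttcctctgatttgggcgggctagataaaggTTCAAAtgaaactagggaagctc
Each of the 6 windows held both kinds of match, whereas 7.0% of all 32851 promoter windows did. CHR letters were in 17.9% and CCAAT letters in 37.4% of all windows, each counted with or without the other. Among the windows of 106 other mitosis genes 39.8% held both, and among those of 38 S phase genes 6.7%. In Cdk1, Ube2c, Kif11 and Top2a a CHR match ended 10, 24, 14 and 18 bases before the start. In Cdca3 and Cdca8 the single CHR match lay after the start, from position 31 and from position 14, outside the stretch shown, and in Cdca8 it shared 1 base with a CCAAT match. These matches are a description of letters in a window and do not show binding.

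**Figure D1:**
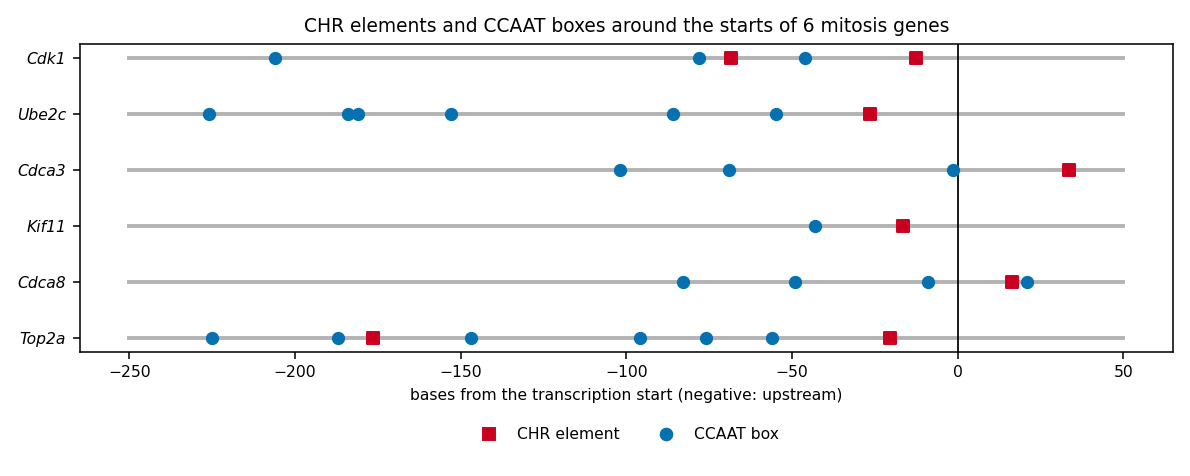
Positions of CHR (red squares) and CCAAT (blue circles) matches on either strand, in bases from the annotated transcription start, in the 300-base windows of 6 mitosis genes. Each gene has at least 1 match of each kind, and in 4 of them a CHR match lies within 29 bases before the start.

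On every one of the 40 arrays the used probes of Cdk1, Cdca3, Cdca8, Tpx2 and Top2a were detected (detection p under 0.05). The Ube2c probe was detected on 16 of 20 colon and 19 of 20 small intestine arrays, and the Kif11 probe on 17 and 20, so their low values lie close to background. Both Cdca3 probes were detected throughout, while the other 2 Cdk1 probes were detected on 2 arrays each and were not tested. All 7 genes passed the filter on detection in every fit, and values are log2 normalized signals, in which differences between faint signals are compressed. The labels held up in the tissue and strain markers: Sis, a brush border enzyme of the small intestine, was at least 13.03 in every small intestine sample and at most 7.05 in every colon sample. H2-Ea, which C57BL/6 mice lack, was at least 11.78 in BALB/c and at most 6.98 in C57BL/6. Some colon samples held pancreatic acinar RNA: the mean of 17 acinar genes was 13.33 and 12.84 in BALB/c VSL#3 mice 4 and 5, 12.74 in C57BL/6 PBS mouse 3 and 10.44 in BALB/c PBS mouse 5, against at most 8.30 in the other 16 colon arrays. Of the defining acinar markers, Cpa1 and Ctrb1 were detected on 7 colon arrays each and on 1 and 3 of 20 small intestine arrays. Cela1, another of these markers, was detected on all 20 arrays of each tissue, so its detection does not single out any array. Its lowest colon signal was 11.03 and its highest 14.48, while no small intestine array exceeded 7.58. Results in colon are therefore given with and without those 4 arrays where they differ.

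**Figure D2:**
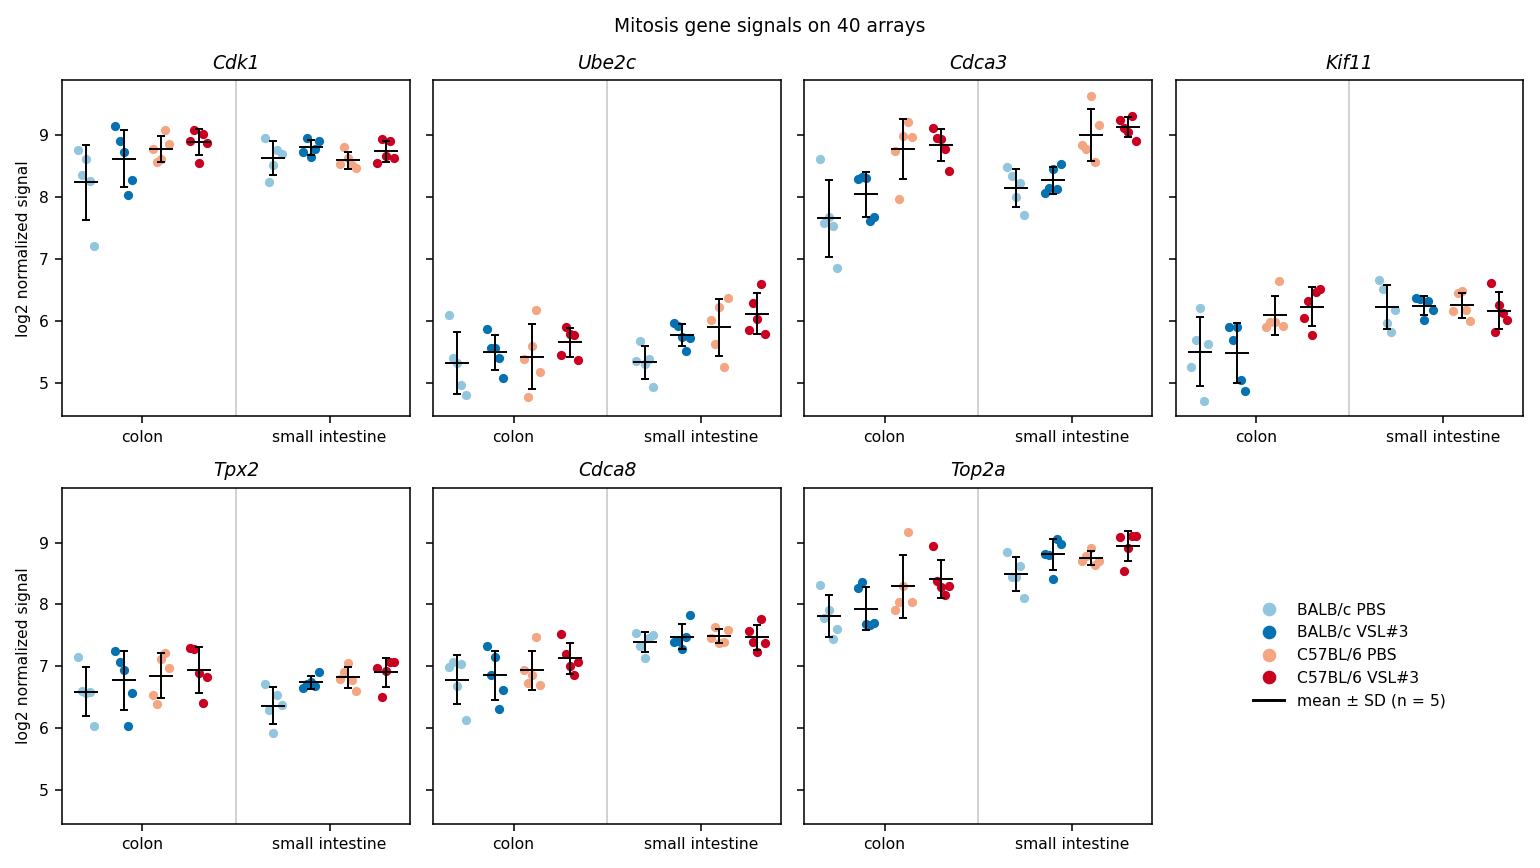
Log2 normalized signal of the 7 mitosis genes on 40 arrays, 1 point per array, with mean and SD of the 5 mice of each strain and treatment in colon (left of each panel) and small intestine (right). Cdca3 lies higher in C57BL/6 than in BALB/c in both tissues, and the colon points of most genes are spread more widely than the small intestine points.

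The first question was whether the probiotic changed these genes. No mitosis gene was called changed with VSL#3 in either strain or tissue, and no other tested gene was. In colon 0% of 9833 genes and in small intestine 0% of 9634 passed an adjusted p of 0.05 in limma (Benjamini-Hochberg over all genes of the fit). At an unadjusted p under 0.05 there were 337 genes in BALB/c colon, 633 in C57BL/6 colon, 592 in BALB/c small intestine and 407 in C57BL/6 small intestine, of which mitosis genes were 0, 0, 3 and 0. The differences between VSL#3 and PBS were small and mostly above 0, in 6 of 7 genes in BALB/c colon, 7 of 7 in C57BL/6 colon, 7 of 7 in BALB/c small intestine and 5 of 7 in C57BL/6 small intestine. Across all genes between 47% and 53% of the differences were above 0 in the 4 comparisons. The comparisons of one strain use separate mice from those of the other, but colon and small intestine come from the same mice. Within groups the 7 genes also tended to vary together (median r of gene pairs 0.64 in colon and 0.25 in small intestine). Their signs are therefore not separate observations.

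The 3 largest differences in BALB/c small intestine were those of Ube2c, Tpx2 and Top2a. Tpx2 stood at 6.71, 6.29, 5.92, 6.53 and 6.38 in PBS mice and at 6.65, 6.71, 6.75, 6.69 and 6.92 in VSL#3 mice. The VSL#3 values were close together and lay above 4 of the 5 PBS values, while PBS mouse 1 lay among them. The difference was 0.38 ± 0.14 (SE, n = 5 and 5; unadjusted p = 0.0120, adjusted p = 0.791 in limma). Ube2c stood at 5.36, 5.68, 5.30, 5.38 and 4.93 in PBS mice and at 5.96, 5.91, 5.75, 5.52 and 5.73 in VSL#3 mice, again with overlap. Its difference was 0.44 ± 0.19 (adjusted p = 0.80 in limma), and that of Top2a, from a mean of 8.49 ± 0.27 (SD, n = 5) to 8.81 ± 0.25, was 0.32 ± 0.14 (SE; adjusted p = 0.80 in limma). None of the 3 passed under any of the 21 or 20 other settings tried per gene, in which Tpx2 ranged from 0.26 to 0.49. When arrays were scaled to a common median instead of common quantiles, the median of all genes rose by 0.12 in this comparison, and the upper ends of these ranges include settings with that shift. Smooth muscle genes stood higher with VSL#3 there, with a median of 0.22 and 10 of 10 above 0, none past the test. Their summed log2 levels ran from 14.36 to 14.86 in PBS and from 14.70 to 15.14 in VSL#3 mice. Such a level is the log2 of the summed signals of a list's genes kept over both tissues. The part of smooth muscle in the differences was not tested.

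In colon the largest differences with VSL#3 were those of Cdca3 and Cdk1 in BALB/c, 0.39 ± 0.26 (SE, n = 5 and 5) and 0.38 ± 0.24. The 95% intervals ran from -0.16 to 0.94 for Cdca3 and from -0.12 to 0.87 for Cdk1, so changes of that size in either gene were not detectable with 5 mice. In C57BL/6 colon the differences lay between 0.07 (Cdca3) and 0.23 (Ube2c). Pancreatic acinar genes stood higher with VSL#3 in BALB/c colon, where mice 4 and 5 held the most acinar RNA, with a median difference of 1.90 and 16 of 17 above 0. In C57BL/6 colon the median was -1.19 with 0 of 17 above 0, and none of them passed the test in either strain. Their part in the differences was not tested, but without the 4 arrays the BALB/c differences were 0.46 for Cdca3, 0.43 for Cdk1 and 0.36 for Tpx2, and Kif11 went from -0.02 to 0.36, so that 7 of 7 genes stood above 0, none called. T cell and B cell genes stood higher with VSL#3 in C57BL/6 colon (medians of 0.43 and 0.47, 9 of 9 and 14 of 16 above 0), none of them past the test. Summed log2 levels of the 13 T cell genes kept over both tissues ran from 9.52 to 9.62 in PBS and from 9.47 to 10.19 in VSL#3 mice. Those of B cell genes ran from 10.07 to 10.24 and from 9.96 to 11.53. The part of T and B cells in the mitosis genes' differences was not tested.

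The VSL#3 effect in BALB/c passed a test against that in C57BL/6 for 0 of the 7 genes (lowest adjusted p = 0.929 in limma, Tpx2 in small intestine) and for 0% of all genes, while 448 genes in colon and 518 in small intestine had an unadjusted p under 0.05 there. For Tpx2 in small intestine the effects differed by 0.30 with a 95% interval from -0.11 to 0.70. Other mitosis genes behaved alike in count: 65 of 86 in BALB/c colon, 67 of 86 in C57BL/6 colon, 61 of 85 in BALB/c small intestine and 61 of 85 in C57BL/6 small intestine stood above 0, with medians between 0.07 and 0.14. Genes of DNA replication (S phase) stood above 0 in 27 of 39, 35 of 39, 31 of 40 and 32 of 40. None of these passed the test. Within groups the mean of the other mitosis genes followed that of the 7 (r = 0.97 in colon and 0.82 in small intestine). Their counts are therefore not separate observations.

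**Figure D3:**
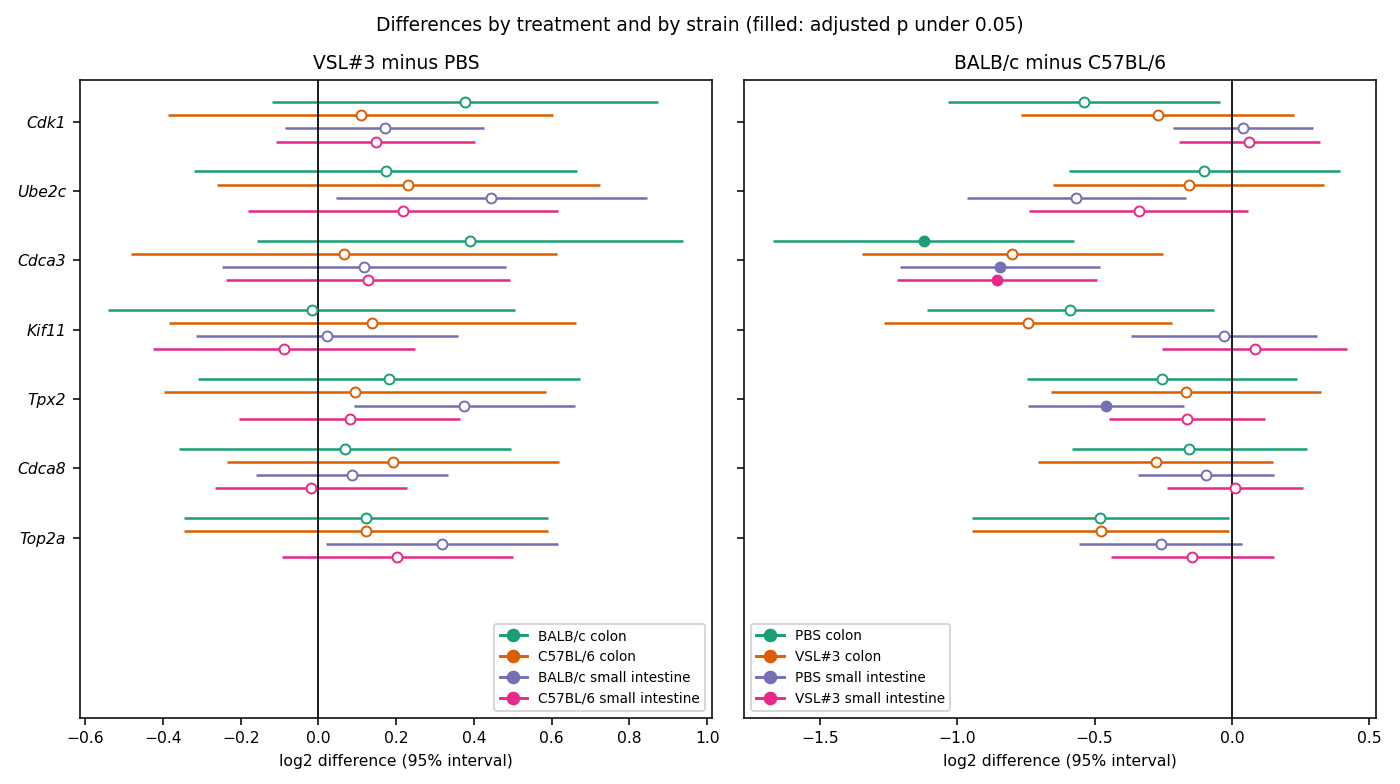
Log2 differences of the 7 mitosis genes with 95% intervals from limma, VSL#3 minus PBS (left) and BALB/c minus C57BL/6 (right), 1 colour per comparison of 5 against 5 mice. Filled points passed an adjusted p of 0.05, which were Cdca3 in 3 comparisons of strains and Tpx2 in 1, and no comparison of treatments.

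Between the strains, Cdca3 was lower in BALB/c than in C57BL/6 in 3 of 4 comparisons, and Tpx2 was in 1. In colon of PBS mice the BALB/c values were 8.62, 7.58, 7.68, 7.53 and 6.86 and the C57BL/6 values were 8.75, 7.97, 8.98, 9.21 and 8.97. Of the BALB/c mice 4 lay below all C57BL/6 mice, and BALB/c mouse 1 lay within their range. The difference was -1.12 ± 0.26 on the log2 scale (SE, n = 5 and 5), a 2.18-fold lower signal with an adjusted p of 0.00606 in limma. In small intestine of PBS mice the values were 8.48, 8.35, 8.00, 8.23 and 7.71 in BALB/c and 8.84, 8.77, 9.64, 8.57 and 9.16 in C57BL/6, with no overlap. This gave -0.85 ± 0.18 (adjusted p = 0.00203 in limma), a 1.80-fold lower signal.

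Under VSL#3 the small intestine values of Cdca3 were 8.07, 8.15, 8.46, 8.13 and 8.54 in BALB/c and 9.25, 9.12, 9.05, 9.30 and 8.90 in C57BL/6, again with no overlap. The difference was -0.86 ± 0.18 (adjusted p = 0.00174 in limma), close in size to that of PBS mice. In colon they were 8.30, 8.32, 8.31, 7.61 and 7.67 in BALB/c and 9.12, 8.95, 8.94, 8.78 and 8.43 in C57BL/6. Every BALB/c value lay below every C57BL/6 value, yet the difference of -0.80 ± 0.26 missed the threshold (adjusted p = 0.0554 in limma). The second Cdca3 probe gave -1.15 ± 0.24 in PBS colon, -1.08 ± 0.24 in VSL#3 colon, -0.89 ± 0.15 in PBS small intestine and -0.96 ± 0.15 in VSL#3 small intestine. The deviations of both probes from their group means correlated with r = 0.79 (rho = 0.83) over the 20 colon arrays and with r = 0.22 (rho = 0.20) over the 20 small intestine arrays. In the order of group means, the 4 C57BL/6 groups stood at 8.78 to 9.13 and the 4 BALB/c groups at 7.65 to 8.27, and the values of groups next to each other in that order overlapped.

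Cdca3 kept its adjusted p under 0.05 in PBS colon and in both small intestine comparisons whichever single mouse was left out. Without the 4 colon arrays that held acinar RNA, of which 3 are BALB/c, its colon difference was -0.87 in PBS mice (adjusted p = 0.0399 in limma) and -0.53 in VSL#3 mice (adjusted p = 0.258). Acinar genes stood higher in BALB/c than in C57BL/6 in VSL#3 colon, with a median of 3.13 and 17 of 17 above 0, and their part in that difference was not tested. In VSL#3 colon the gene passed without C57BL/6 mouse 5 (-0.90, adjusted p = 0.0452) and under 5 of the other settings.

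Counted over the 7 genes, 1 was called lower in BALB/c in PBS colon, where 5.76% of all 9833 genes were. In VSL#3 colon 0 were, against 5.74% of all genes, and 3 had an unadjusted p under 0.05 in limma. In small intestine 2 were called lower in PBS mice and 1 in VSL#3 mice, against 5.66% and 6.06% of 9634 genes. The groups did not overlap for 1 gene, Cdca3, in VSL#3 colon and in both small intestine comparisons, against 5.11%, 4.58% and 5.36% of all genes lower without overlap. In PBS colon, where 4.74% of all genes were, it was 0 of the 7. The strains were scaled to common quantiles. With a common median instead, the split of all genes called in VSL#3 small intestine went from 625 higher and 584 lower in BALB/c to 983 and 377, as the median of all genes rose to 0.14.

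The second gene called was Tpx2 in small intestine of PBS mice, where the BALB/c values given above faced 6.79, 6.91, 7.06, 6.78 and 6.60 in C57BL/6. All but 1 of the BALB/c values lay below the lowest C57BL/6 value, and the difference was -0.46 ± 0.14 (SE, n = 5 and 5; adjusted p = 0.0319 in limma). It rested on single mice: leaving out BALB/c mouse 2, 3 or 5 gave adjusted p-values of 0.0642, 0.102 and 0.0573, and leaving out C57BL/6 mouse 1, 2 or 3 gave 0.0512, 0.0677 and 0.0844. In VSL#3 mice the Tpx2 difference there was -0.16 (adjusted p = 0.497). Ube2c in PBS small intestine stood at 5.90 ± 0.46 (SD, n = 5) in C57BL/6 and 5.33 ± 0.27 in BALB/c, a difference of -0.57 ± 0.19 (SE) with an adjusted p of 0.0638 in limma. It passed without BALB/c mouse 2 (-0.65, adjusted p = 0.0395) and without C57BL/6 mouse 4 (-0.73, adjusted p = 0.00962).

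All 7 genes had a difference below 0 in colon in PBS mice and in VSL#3 mice, with medians of -0.48 and -0.28, whereas the medians of all genes were 0.01 in both. Kif11 came nearest to the threshold after Cdca3, at -0.59 ± 0.25 (adjusted p = 0.151 in limma) and -0.74 ± 0.25 (adjusted p = 0.0629), with 3 of the 5 BALB/c VSL#3 colon arrays detecting it. It passed without BALB/c VSL#3 mouse 1 (-0.85, adjusted p = 0.0490) and without C57BL/6 VSL#3 mouse 3 (-0.86, adjusted p = 0.0436). Top2a stood at -0.48 in both treatments, with adjusted p-values of 0.199 and 0.197. Without the 4 arrays Ube2c stood at 0.07 in PBS mice, and Cdk1, Tpx2 and Ube2c stood at 0.04, 0.15 and 0.01 in VSL#3 mice. Kif11 stood at -0.65 and -0.40 and Top2a at -0.43 and -0.31 without them, none called. In small intestine 6 of 7 genes were below 0 in PBS mice and 4 of 7 in VSL#3 mice. These counts too are of genes that tended to vary together, not of separate observations.

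Among 86 other mitosis genes 4 were called lower and 1 higher in BALB/c in PBS colon, against 566 lower and 598 higher of all 9833 genes. The lower ones were Dlgap5, a microtubule-bundling spindle protein (-1.22), Ncapg2, a condensin II subunit (-1.07), Kpna2, an importin (-1.04), and Haus8, a subunit of the microtubule-branching augmin complex (-0.64). Cdc23, an APC/C subunit, was higher (0.57). In VSL#3 colon 6 were called lower and 0 higher, against 564 and 527 of all genes, Haus1 (-0.40) and Mybl2, a transcription factor of mitotic genes (-0.69), joining the same 4. In small intestine Dlgap5 was lower in PBS (-1.05) and VSL#3 mice (-0.81), as was Ncapg2 (-0.54 and -0.78). Haus8 was lower in PBS mice (-0.51), the centromere proteins Cenpk (-0.61) and Cenpp (-0.44) in VSL#3 mice, and Mis18a (0.36) and Cdca7 (0.44) were higher in VSL#3 mice. This made 3 of 85 lower and 0 higher in PBS mice, against 545 and 507 of all 9634 genes, and 4 lower and 2 higher of 85 in VSL#3 mice, against 584 and 625. Of 39 S phase genes in colon 1 was called higher in PBS mice, the replication factor Gins4 (0.49), and in VSL#3 mice Gins4 was higher (0.48) and the ribonucleotide reductase subunit Rrm1 lower (-0.62).

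Cell type markers moved with strain as well. In PBS colon 10 of 16 B cell genes and 6 of 9 T cell genes were called higher in BALB/c, and 3 of 10 smooth muscle genes lower. For B cell genes the summed log2 levels were 10.60 to 11.43 in BALB/c mice against 10.07 to 10.24 in C57BL/6 mice. For the 13 T cell genes kept over both tissues they were 9.84 to 10.85 against 9.52 to 9.62. For smooth muscle genes they were 15.60 to 15.98 against 15.91 to 16.23. Of the defining T cell markers, Cd3e was detected on 17 of 20 colon and 20 of 20 small intestine arrays, and Cd3g on 20 of 20 in each. Cd8a was detected on 0 of 20 colon and 0 of 20 small intestine arrays, and Cd4 on 1 of 20 in each. In PBS small intestine 5 of 15 B cell genes were called higher and 4 of 10 smooth muscle genes lower. Their part in the strain differences of Cdca3 and Tpx2 was not tested.

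Between tissues, most mitosis genes were lower in colon than in small intestine of the same mouse. Over the 4 groups 5 of the 7 were called lower and 0 higher, against 26.2% lower and 33.5% higher of 10715 genes. They were Top2a at -0.64 ± 0.09 (SE, 20 mice; adjusted p = 2.6e-06 in limma), Cdca8 at -0.53 ± 0.09 (3.48e-05), Kif11 at -0.40 ± 0.11, Cdca3 at -0.31 ± 0.09 and Ube2c at -0.31 ± 0.10. Cdk1, at -0.06 ± 0.09, and Tpx2, at 0.08 ± 0.10, were not called, with 95% intervals from -0.26 to 0.14 and from -0.13 to 0.28. Top2a was lower in the colon of 19 of 20 mice, Cdca8 of 19, Ube2c of 17, Cdca3 of 16, Kif11 of 15, Cdk1 of 9 and Tpx2 of 8.

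Top2a shows the pattern. In BALB/c PBS mice it stood at 8.32, 7.78, 7.92, 7.44 and 7.60 in colon and at 8.85, 8.44, 8.45, 8.61 and 8.10 in small intestine. In BALB/c VSL#3 mice the values were 8.26, 8.36, 7.68, 7.67 and 7.71 in colon and 8.81, 8.79, 8.41, 9.05 and 8.97 in small intestine. Every BALB/c mouse was lower in colon, and under VSL#3 the tissues did not overlap, which held lower in colon for 2 of the 7 genes (Top2a and Kif11) and 11.7% of all genes. In C57BL/6 PBS mice Top2a stood at 7.91, 8.03, 8.30, 9.17 and 8.04 in colon and at 8.70, 8.79, 8.92, 8.63 and 8.71 in small intestine. In C57BL/6 VSL#3 mice the values were 8.95, 8.38, 8.29, 8.15 and 8.30 in colon and 9.08, 8.54, 8.92, 9.11 and 9.11 in small intestine. C57BL/6 PBS mouse 4 was the exception among the 20, with its colon 0.54 above its small intestine. Its paralog Top2b, which is also expressed in cells that do not divide, differed by 0.02 between tissues (adjusted p = 0.81 in limma).

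Cdca8 in colon stood at 7.0, 7.07, 6.69, 7.04 and 6.13 in BALB/c PBS, at 7.33, 6.86, 7.15, 6.32 and 6.62 in BALB/c VSL#3, at 6.94, 6.72, 6.86, 7.48 and 6.70 in C57BL/6 PBS and at 7.52, 7.19, 7.01, 6.86 and 7.07 in C57BL/6 VSL#3 mice. In small intestine the same groups stood at 7.55, 7.33, 7.14, 7.46 and 7.50, at 7.40, 7.41, 7.28, 7.48 and 7.83, at 7.46, 7.64, 7.38, 7.39 and 7.59 and at 7.57, 7.40, 7.24, 7.76 and 7.38. The 4 small intestine means (7.40 to 7.49) all lay above the 4 colon means (6.79 to 7.13), and in BALB/c PBS mice the tissues did not overlap, which held for 1 of the 7 genes and 9.74% of all genes. Kif11 had colon means of 5.50 and 5.48 in BALB/c and 6.09 and 6.23 in C57BL/6, and small intestine means between 6.16 and 6.25, with overlap between the strains in colon and no call for strain there.

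**Figure D4:**
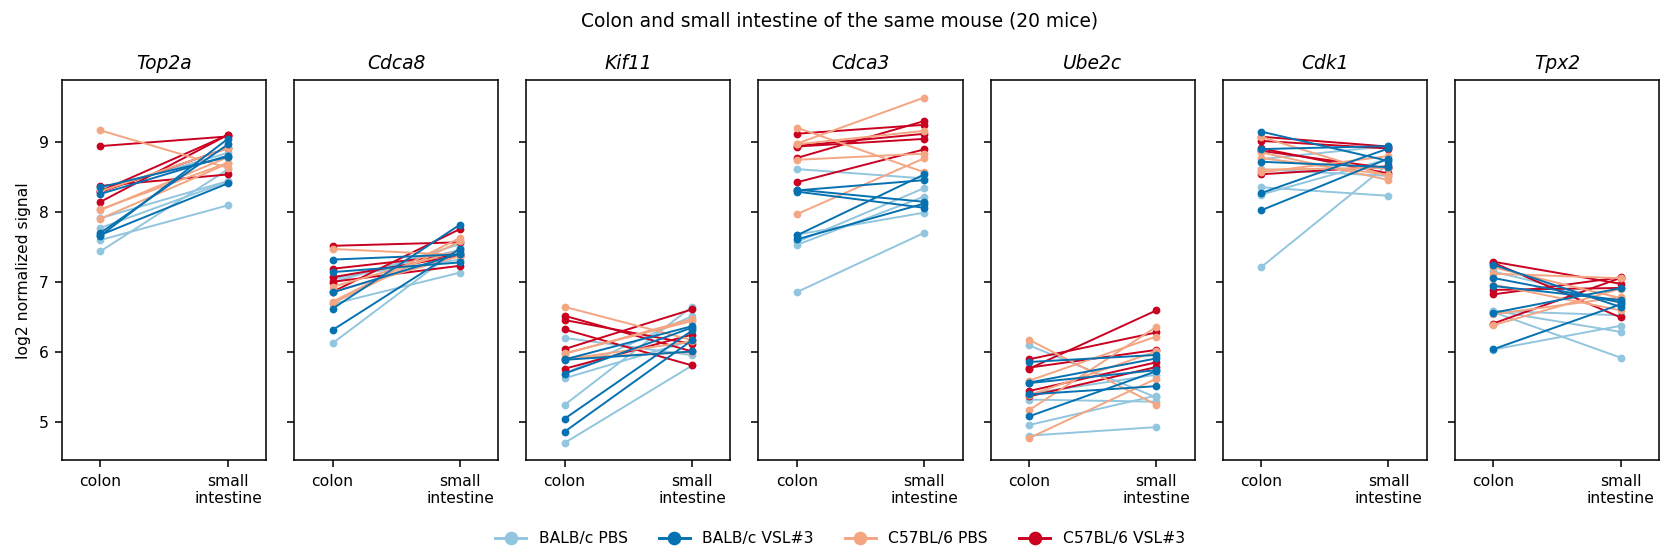
Log2 normalized signal of each mitosis gene in the colon and small intestine of the same mouse, 1 line per mouse, coloured by strain and treatment. Lines of Top2a and Cdca8 rise towards small intestine in 19 of 20 mice, and those of Cdk1 and Tpx2 run both ways.

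Taken group by group, 4 genes were called lower in colon of BALB/c PBS mice (Top2a, Cdca8, Kif11 and Cdca3) against 16.1% of all genes, and 3 in BALB/c VSL#3 mice (Top2a, Cdca8 and Kif11) against 17.7%. In C57BL/6, 2 were called in PBS mice (Top2a and Cdca8) against 16.9% and 1 in VSL#3 mice (Top2a) against 17.2%. The group calls rested on single mice in part. In BALB/c PBS mice Cdca3 lost its call without mouse 2, 4 or 5 (adjusted p = 0.118, 0.104 and 0.134 in limma), Cdca8 without mouse 5 (0.0898) and Kif11 without mouse 1 or 4 (0.0755 and 0.0547). In BALB/c VSL#3 mice Cdca8 lost it without mouse 4 or 5 (0.0621 and 0.0630). In C57BL/6 PBS mice Top2a lost it without mouse 1, 2, 3 or 5 (0.161, 0.153, 0.120 and 0.134) and Cdca8 without mouse 2 or 5 (0.0901 and 0.0869), while Ube2c gained one without mouse 4 (-0.83, adjusted p = 0.000188). In C57BL/6 VSL#3 mice Top2a lost it without mouse 3, 4 or 5 (0.0542, 0.0963 and 0.0767). The 5 calls over all 4 groups held whichever mouse was left out.

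Some calls between tissues were lost without the 4 colon arrays that held acinar RNA. The part of acinar RNA in this was not tested. Without these arrays 3 of the 5 calls over the 4 groups stood: Top2a at -0.56 (adjusted p = 0.000111 in limma), Cdca8 at -0.39 (0.000414) and Kif11 at -0.30 (0.0442). Cdca3 at -0.18 (0.109) and Ube2c at -0.27 (0.0798) no longer passed. In BALB/c VSL#3 mice, which lost 2 of 5, none of the 3 calls stood, Top2a being at -0.57 (0.0661), Cdca8 at -0.26 (0.321) and Kif11 at -0.42 (0.292). In BALB/c PBS mice Cdca3 no longer passed (-0.41, 0.0941), and in C57BL/6 PBS mice Top2a did not (-0.42, 0.105). The BALB/c PBS calls of Kif11 (-0.77, 0.0196), Top2a (-0.72, 0.00768) and Cdca8 (-0.42, 0.0466) stood. So did the C57BL/6 PBS call of Cdca8 (-0.56, 0.00948). Other markers differed between tissues too: 9 of 10 smooth muscle genes were called higher and 11 of 13 T cell and 9 of 16 B cell genes lower in colon. The summed log2 level of smooth muscle genes was 15.60 to 16.23 in colon against 14.36 to 15.47 in small intestine, and that of T cell genes 9.47 to 10.85 against 10.75 to 12.06. Olfm4, a small intestine crypt marker, was detected on 2 of 20 colon and 20 of 20 small intestine arrays. Among other crypt stem markers, Lgr5 was detected on 16 colon and 20 small intestine arrays. Ascl2 was detected on 14 and 14, and Axin2 on 20 and 20. The part of these cell types in the tissue difference was not tested.

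Of 86 other mitosis genes 30 were called lower and 7 higher in colon over the 4 groups, with a median of -0.12 against 0.02 for all genes. The lower ones included Lmnb1, the nuclear lamina protein taken apart at mitotic entry (-0.73), Cdca5, which protects sister cohesion (-0.53), and the histone variant gene H2ax (-0.43). Among spindle genes the kinesins Kif15 (-0.52), Kif2c (-0.38) and Kif18b (-0.34) fell furthest, and among cytokinesis genes Kif23 did (-0.52). The M phase regulators Mybl2 (-0.38), Aurka (-0.36) and Plk1 (-0.33) were lower, as were Ska3 (-0.34), Incenp (-0.25), Sgo1 (-0.24) and Birc5 (-0.23), the last a partner of Cdca8. APC/C genes were divided: the activators Cdc20 (-0.37) and Fzr1 (-0.13) were lower, while the core subunits Cdc16 (0.35), Anapc5 (0.24), Anapc13 (0.22) and Cdc23 (0.19) were higher. Haus8 (0.30), Ncaph2 (0.24) and Cenpp (0.19) made up the higher genes. Of 40 S phase genes 25 were called lower and 1 higher, with a median of -0.30, led by Mcm10 (-0.97), Fen1 (-0.61) and Pola2 (-0.55). Ccna2, the S and G2 phase cyclin, differed by -0.10 (adjusted p = 0.46).

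The tissue difference was not called different between strains for any of the 7 genes in PBS mice, whereas 2.96% of 10715 genes were. The largest differences there were -0.58 for Cdk1 (95% interval -1.14 to -0.02; adjusted p = 0.317 in limma), -0.56 for Kif11 (-1.20 to 0.09) and 0.47 for Ube2c (-0.14 to 1.07). Without the 4 colon arrays that held acinar RNA, Cdk1 stood at -0.36, Kif11 at -0.69 and Ube2c at 0.46, none called. Ube2c alone was called when C57BL/6 PBS mouse 4 was left out (0.82, adjusted p = 0.0313).

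Within groups, the mitosis genes varied together in colon and less so in small intestine. Over the 20 colon arrays, with each value taken relative to its group mean, the 21 pairs of genes had a median Pearson r of 0.64, from 0.16 to 0.83, with 15 pairs over 0.5. Over the 20 small intestine arrays the median was 0.25, from -0.09 to 0.64, with 2 pairs over 0.5. These correlations describe arrays that share one normalization, and whether the tissues differ in them was not tested. The spread was larger in colon too: the SD within groups was 0.35 to 0.46 for the 7 genes in colon, at the 83rd to 95.5th percentile of all genes, and 0.18 to 0.32 in small intestine, at the 22.6th to 75.8th percentile.

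Single mice stood out in colon across most of the 7 genes. Their mean lay 0.55 above the group mean in C57BL/6 PBS mouse 4, 0.47 above in BALB/c PBS mouse 1 and 0.41 above in BALB/c VSL#3 mouse 1. It lay at -0.52 in BALB/c PBS mouse 5, -0.44 and -0.34 in BALB/c VSL#3 mice 4 and 5 and -0.39 in C57BL/6 PBS mouse 2. The low BALB/c arrays were those with acinar RNA, while C57BL/6 PBS mouse 3, which also held it, stood at 0.04. In BALB/c colon the deviations also split by the letter of the source code. Mice 1, 2 and 3 (letter A) lay at 0.08 to 0.47 in both treatments, and mice 4 and 5 (letter B) at -0.52 to -0.20. The low BALB/c arrays with acinar RNA all carry the letter B, so letter and acinar RNA cannot be told apart there. In C57BL/6 colon each letter held mice above and below the group mean. Without the 4 arrays the median r of the pairs was 0.58 over 16 arrays, from -0.02 to 0.80, and the SD within groups fell from 0.41 to 0.22 for Cdk1 and from 0.35 to 0.27 for Cdca8 but was 0.42 for Top2a, against 0.38 with them.

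The mean over 86 other mitosis genes followed that of the 7 closely in colon, with r = 0.97 (rho = 0.95, 20 arrays), and r = 0.94 (rho = 0.93, 16 arrays) without the 4. In small intestine r was 0.82 (rho = 0.81) over 85 genes. By class, r in colon was 0.95 for 23 passenger, checkpoint and kinetochore genes, 0.94 for 17 spindle genes, 0.94 for 13 condensin, cohesion and chromatin genes, 0.92 for 6 cytokinesis genes and 0.61 for 13 APC/C genes. S phase genes followed with r = 0.77 (rho = 0.74), and 14 cell cycle inhibitors and quiescence genes ran opposite with r = -0.62 (rho = -0.59). The 13 epithelial genes gave r = 0.63 (rho = 0.61), and 0.43 (rho = 0.27) without the 4 arrays. In small intestine they gave r = 0.16 (rho = 0.03). For 11 crypt stem and Wnt target genes r was -0.20 (rho = -0.25) in colon. In small intestine it was -0.585 (rho = -0.577) for 12 such genes. Of the other cell types in colon, the 16 B cell genes gave r = -0.01 (rho = -0.05). The 9 T cell genes gave r = 0.345 (rho = 0.392), and 10 smooth muscle genes r = -0.377 (rho = -0.489). For the 17 acinar genes no r over all colon arrays is given, since 4 arrays stand apart, and over the other 16 it was -0.47 (rho = -0.57). No p is given, since the 7 genes were chosen with results known and the arrays share their normalization.

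The genes most like the mean of the 7 over the 20 colon arrays, out of 9826, were Ncaph, a condensin I subunit (r = 0.95), the mitotic kinase Pbk (0.95), the centromere protein Cenpp (0.94), the spindle midzone protein Prc1 (0.93), the histone gene H2ac11 (0.92), the kinesin Kif22 (0.92), Birc5 (0.91) and Snrpg (0.91), a core spliceosome protein. With median scaling 7 of these 8 were again among the top 8. In small intestine the top 8, out of 9627, were Myg1 (0.86), Ccnd1 (0.86), Prc1 (0.82), Birc5 (0.82), Rassf4 (0.82), Tufm (0.81), Klhdc4 (0.81) and Ece2 (0.81). With median scaling only 2 of those 8 were again among the top 8.

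**Figure D5:**
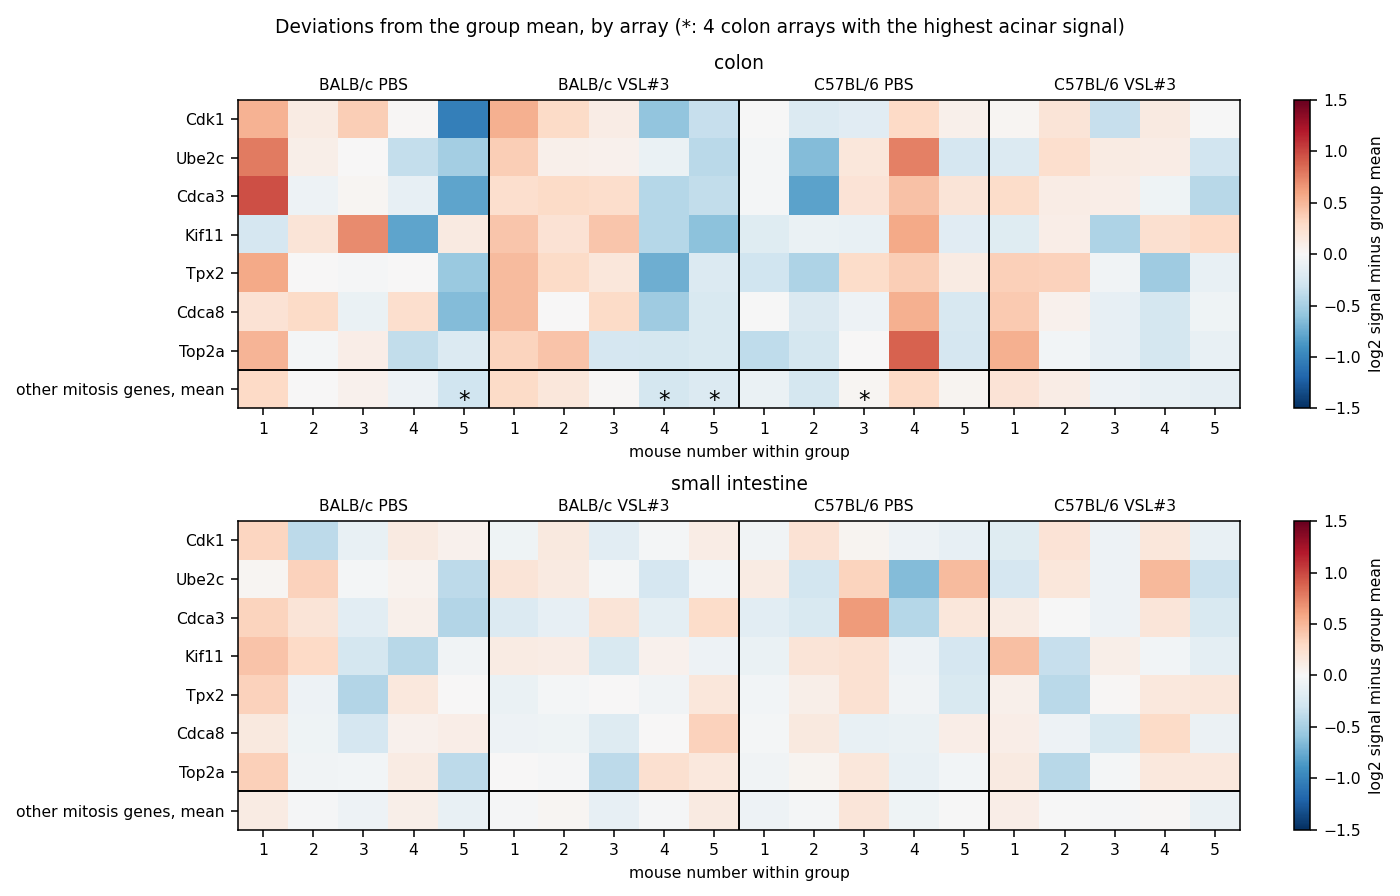
Log2 signal minus the group mean for the 7 mitosis genes and the mean of the other mitosis genes, on the 20 colon arrays (top) and the 20 small intestine arrays (bottom), with red for above and blue for below the group mean. In colon all 7 genes lay above the group mean in C57BL/6 PBS mouse 4 (mean 0.55), and all but Kif11 lay below it in BALB/c PBS mouse 5 (mean -0.52).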

How the data were processed

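RNA of 40 intestinal samples was measured on Illumina MouseRef-8 BeadChips, from 500 ng of total RNA and 750 ng of labelled cRNA per array, per the labels' protocols. The values used are the authors' deposited non-normalized intensity and detection value per probe and array. The deposited detection value rose with intensity (Spearman correlation 0.965 to 0.988 per array). It was therefore read as 1 minus the detection p-value. Between 21.4% and 25.1% of intensities per array were below 0, so a background had been subtracted. The scanner software and the background step are not given in the sources used here, and limma is the tool listed in the submitters' processing notes, with no version. The deposited normalized log2 table was used as an alternative only, because 10 of its 40 columns, all of VSL#3 colon, matched an array of the opposite strain among the non-normalized values (lowest Spearman correlation with the matched array 0.989). In that alternative each column was given to its matched array.

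Intensities were background-corrected and quantile-normalized with neqc (limma 3.58.1, R 4.3.3, offset 16). Probes detected (p under 0.05) on at least 5 arrays of a fit were kept, and the brightest probe stood for a gene, leaving 9833 genes in colon, 9634 in small intestine and 10715 for both. Each tissue was fitted with 4 group means, and colon minus small intestine was fitted per mouse. Mice were matched between tissues by the source codes in the labels (mean r of deviations 0.157, over 0.1 in 13 of 20 mice). The test was limma's moderated test with Benjamini-Hochberg adjustment at 0.05, over all genes. Nothing in the labels shows separate batches of mice beyond these codes. Groups of 5 mice limit the precision of the differences. Detected probes per array numbered 11898 to 13518.

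The genes and gene lists were chosen with earlier results of these data known. Named genes are the 7 members, listed genes past the test, and the 8 genes most correlated with their mean per tissue. Alternatives covered background, normalization, filters, probe choice, blocks, samples left out, and the 3 or 4 colon arrays with acinar RNA, the last chosen after seeing the data. Promoter letters were searched on both strands in RefSeq windows. Listed genes without a kept probe were not analysed here.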

Additional observations from a re-analysis of the deposited data

Results flagged for a closer look

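Within groups of 5, single arrays stood far from the other 4 for 7 of 68 sets of a probe and a group with at least 1 detected array, by the ratio of the gap to the whole range; chance gives about 1 in 20. In colon, Kif11 stood at 6.6504 in C57BL/6 PBS mouse 4 against a group median of 5.9794. Top2a stood at 8.9465 in C57BL/6 VSL#3 mouse 1 against a median of 8.302. The second Cdca3 probe stood at 7.3851 in BALB/c PBS mouse 1 against 6.418. In small intestine of C57BL/6 VSL#3 mice, Tpx2 stood at 6.4991 in mouse 2 against 6.9799, and the second Cdca3 probe at 8.3106 in mouse 1 against 7.9269. The other 2 were the faint Cdk1 probes in colon, at 5.3771 in BALB/c VSL#3 mouse 4 against 4.6888 and at 5.1776 in C57BL/6 VSL#3 mouse 1 against 4.7444.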

How the results depend on the processing

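Of 412 counts of called genes recomputed under other settings 36 moved by more than 1.5 times, or to or from 0, and of 420 with 1 mouse left out 22 did. Smaller changes are not counted here. No called difference of the 7 genes turned its sign in 207 recomputed under settings and 190 with a mouse left out, and 181 and 167 of these were still called. Differences not called turned sign in 29 of 1205 and 98 of 1280.

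For VSL#3, the 0 genes called became 2 and 1 in BALB/c colon without the 3 or the 4 colon arrays with acinar RNA, 1 and 1 pooled over strains in colon, and 2 and 2 for the difference between strains in colon. In BALB/c small intestine they became 1 without background correction, with median scaling, in the normalized table and with only the compared groups. None was a mitosis gene. Between strains in VSL#3 colon, the 0 mitosis genes became 1 with probes detected on every array, with the mean of probes, with only the compared groups, with a trended robust spread and with the source-code letter as a block. In PBS small intestine the 2 became 1 with median scaling and with only the compared groups. Between tissues, the 4 of BALB/c PBS mice became 2 with median scaling, and the 1 of C57BL/6 VSL#3 mice became 0. The 3 of BALB/c VSL#3 mice became 0 and 0 without the 3 or 4 arrays. The 2 of C57BL/6 PBS mice became 0 with median scaling and 1 without background correction, in the normalized table, without a filter and without the 3 or 4 arrays. The 5 over the 4 groups became 3 without either set of arrays, and 3 with probes detected on every array, where Ube2c and Kif11 were not tested. Genes whose tissue difference differed between strains fell from 317 to 198 without background correction and 199 in the normalized table. Apart from genes that were no longer tested, the cause of these changes was not tested.

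With the mouse number of the titles as a replicate block, the 0 genes called with VSL#3 in C57BL/6 colon became 1, the 0 mitosis genes between strains in VSL#3 colon became 1, and the 2 in PBS small intestine became 1. Without the mouse as a replicate block the 2 in C57BL/6 PBS mice became 1. Same-numbered mice of 2 groups deviated together (r over 0.1) in 4 of 5 pairs of BALB/c colon, where r ran from -0.10 to 0.48. This held for 2 of 5 pairs between strains in VSL#3 colon and 1 of 5 in VSL#3 small intestine. In the other 5 comparisons it held for 0 of 5. The number was not used to pair mice in the main fits.

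Leaving out each mouse gave 0 to 1 genes with VSL#3 in C57BL/6 colon, in BALB/c small intestine and for the difference between strains in colon. It gave 0 to 1 mitosis genes between strains in VSL#3 colon, 1 to 3 in PBS small intestine, 2 to 4 between tissues in BALB/c PBS, 0 to 3 in C57BL/6 PBS and 0 to 1 in C57BL/6 VSL#3 mice, and 0 to 1 for the tissue difference between strains. Ube2c and Kif11 lie near background, which limits their values.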
